A study of Mus musculus with 7 samples.

Results

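The genes described here encode the enzymes that carry glucose and glycogen to pyruvate and pyruvate into the TCA cycle. There are 43 of them, 18 of glycolysis, 5 of glycogen synthesis and breakdown, 7 of the pyruvate dehydrogenase complex and its kinases, 12 of the TCA cycle, and pyruvate carboxylase (Pcx). They were listed by name and matched by gene symbol to the table of 14641 genes. All 43 were found, and all 43 passed the filter on low counts. Their levels were compared between the hearts of 4 non-transgenic (NTG) mice, numbered 1 to 4, and of 3 mNrf2-TG mice, numbered 17 to 19. All mice were C57BL/6J males, and RNA came from heart tissue. The mNrf2-TG mice carry full-length mouse Nrf2, a transcription factor of the antioxidant response, under the αMHC promoter, which is active in cardiomyocytes, and the NTG mice were their littermates. The labels give 6 months for mNrf2-TG and no age for NTG, the methods give 6 to 7 months for both, and the design text gives 7 to 8 months. The labels list each library as a separate sample without naming the mouse, so p-values measure the spread between these samples.

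Glycolysis splits glucose into pyruvate, and most of its steps have several isoenzymes encoded by separate genes, some typical of striated muscle and others of most tissues. Glycogen is the branched glucose store of the cell, built by glycogen synthase and the branching enzyme and taken down by glycogen phosphorylase. Pyruvate enters the mitochondrion and is turned into acetyl-CoA by pyruvate dehydrogenase or into oxaloacetate by pyruvate carboxylase, and both products meet in citrate synthase, the entry to the TCA cycle. The adult heart runs mostly on fatty acids and keeps glucose oxidation as a second supply.

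The libraries held 6534684 to 8405857 reads each on the genes of the table. A normalized count is a count scaled by edgeR's TMM factors (0.967 to 1.03) to the mean library size, and Log2FC is the log2 fold change of mNrf2-TG against NTG from edgeR's quasi-likelihood test, with its standard error (SE). A gene is called when its p, adjusted by the Benjamini-Hochberg method over the 14637 genes tested, was under 0.05. Gene positions are those of GENCODE M21 on GRCm38. Nfe2l2, the gene of Nrf2, was higher in every mNrf2-TG library (Log2FC 3.36), a count that includes the transgene's reads. Ventricular markers were abundant, with 58424 to 99602 normalized counts of Myl2 per library, and the atrial light chain gene Myl7 had at most 4 counts in any library. Myl4, another atrial light chain gene, had 17 to 26 counts per NTG library and 22 to 65 per mNrf2-TG library. It was not called (Log2FC 0.94, SE 0.32, adjusted p = 0.069), and the atrial gene Nppa was called higher (below). NTG 3 stood apart from the other NTG libraries in Acta1, the skeletal actin gene, with 9170 normalized counts beside 1568 to 2108.

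Nrf2 binds the antioxidant response element (ARE), whose core was searched as TGACNNNGC on both strands. The windows ran from 250 bases before to 50 bases after each transcript start annotated by RefSeq (GRCm38.p6). Windows were found for 42 of the 43 genes, and Idh3a had none. The core was in a window of 7 of these 42 genes, beside 13.99% of all genes with windows. The genes were Hk1, Aldoa and Pdhb, whose expression was called (below), and Dlst, Idh3g, Mdh1 and Sucla2, whose expression was not. The stretches of the called genes are shown with the window of Me1, malic enzyme, a called gene of the same metabolism outside the 43. Capitals mark the core as it reads on the gene's strand, and in Aldoa and Pdhb the core is on the opposite strand, so its complement is shown. The letters TGACTCA in Aldoa and Me1 are also the motif of AP-1 factors. All lie on the minus strand of the chromosome, at chr10:62340422-62340450 (Hk1), chr7:126799446-126799494 (Aldoa), chr14:8172992-8173020 (Pdhb) and chr9:86695912-86695940 (Me1). Those of Hk1, Aldoa and Pdhb are inside the span that GENCODE M21 gives the gene, and those of Hk1 and Aldoa precede an internal transcript start.
Hk1: tggcactgtgccaccacgcgTGACCGCGC
Aldoa: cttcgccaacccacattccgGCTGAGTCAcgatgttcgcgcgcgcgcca
Pdhb: ggtgtcacgccctactattgGCTGCGTCA
Me1: cggctcggccgatgccgccgTGACTCAGC
No window of the 5 glycogen genes held the core, Gbe1 included, whose change was by far the highest of the 43. Of 20 other glycogen genes with windows, outside the 43, 4 held it. These were Ppp1r3d, which was called (below), and Epm2a, Pgm2 and Ppp1r3a, which were not. The core of the hypoxia response element, ACGTG, which overlaps the E-box motif CACGTG, was in windows of 10 of the 18 glycolysis genes and 19 of the 42 genes, beside 21.78% of all genes. The 42 genes had 62 windows and the 27025 genes of the background had 32851, so the shares per gene rest on unlike numbers of windows. A match of letters is a description and shows no binding.

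Of the 43 genes, 18 were called, 12 higher and 6 lower in mNrf2-TG. Over all genes tested, 17.2% were called, 8.48% as higher and 8.73% as lower. The metabolic genes are abundant, and call rates rise with abundance. Among all genes with a mean of at least 1000 normalized counts, 35% were called, and among the 38 of the 43 genes at that level, 14 were called (36.8%). The share called was therefore near that of other genes at their level. Normalized counts of the groups did not overlap for 26 of the 43 genes, 16 higher and 10 lower, where 29.7% of all genes showed no overlap. Unlike the calls, this share was not compared with that of genes at the same level. The median Log2FC over the 43 genes was 0.04, and over all genes it was 0.00. By step, 8 of 18 glycolysis genes were called higher and 2 lower (median Log2FC 0.18). In the glycogen group 3 of 5 were higher and none was lower (median 0.37). The pyruvate dehydrogenase group had 3 of 7 lower and none higher (median -0.13), and the TCA cycle had 1 of 12 lower and none higher (median 0.03). Without NTG 3, 18 of the 43 genes were called as well, with Pfkl and Ldhb in place of Eno1 and Cs.

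**Figure D1:**
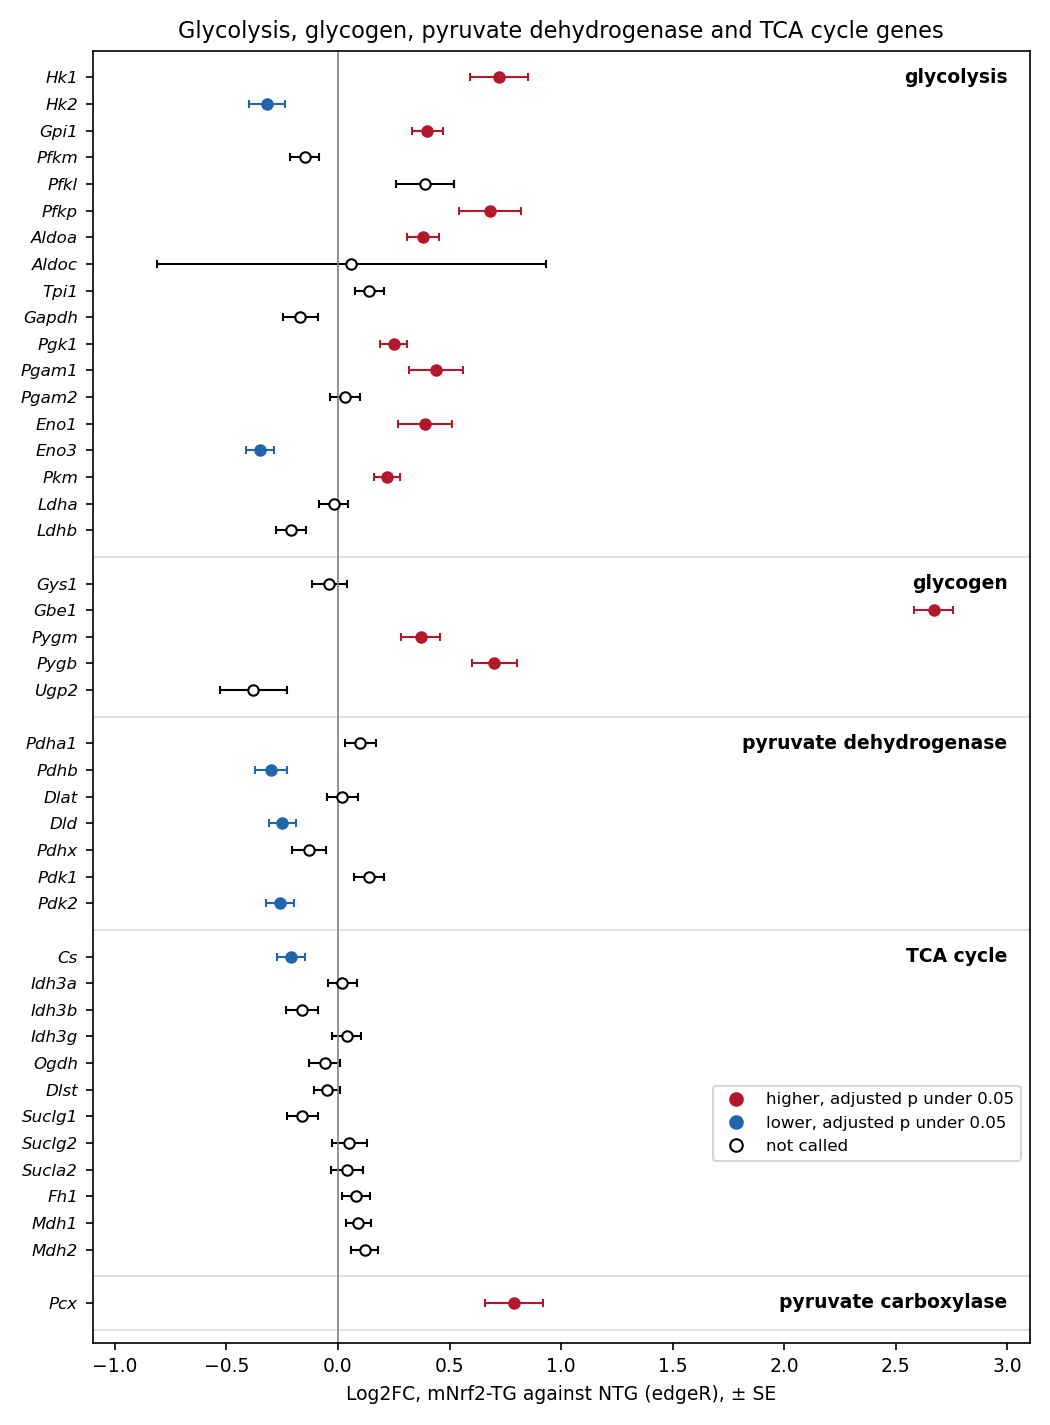
Log2FC of mNrf2-TG (n = 3) against NTG (n = 4) from edgeR on the x axis for each of the 43 genes, grouped by step, with bars of ± SE and filled points for genes with an adjusted p under 0.05. Gbe1 lies at 2.67, and the other 42 genes lie between -0.38 and 0.79.

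Hexokinase traps glucose in the cell by phosphorylation. Hk1 (chromosome 10, 62268855 to 62379908), the hexokinase of most tissues, had 1385, 1392, 1903 and 1806 normalized counts in NTG 1 to 4 and 2495, 3089 and 2417 in mNrf2-TG 17 to 19. Every mNrf2-TG library was above every NTG library (1.64-fold, Log2FC 0.72, SE 0.13, adjusted p = 0.00681). Hk2 (chromosome 6, 82725025 to 82774454), the insulin-sensitive hexokinase of muscle, had 3086, 2799, 3338 and 2839 in NTG and 2546, 2421 and 2270 in mNrf2-TG. It was lower in each mNrf2-TG library (Log2FC -0.32, SE 0.081, adjusted p = 0.0234), so the hexokinase genes moved in opposite directions. Gpi1, glucose phosphate isomerase (chromosome 7, 34201330 to 34230336), had 3862, 3773, 4140 and 4043 in NTG and 5015, 5653 and 5008 in mNrf2-TG, without overlap (Log2FC 0.40, SE 0.069, adjusted p = 0.00494). Without 1 library, Hk1 and Gpi1 remained called in each of the 7 fits, and Hk2 was not called without NTG 1 (adjusted p = 0.0671), mNrf2-TG 18 (0.067) or mNrf2-TG 19 (0.0879).

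Phosphofructokinase is the committed step of glycolysis and is assembled from muscle (Pfkm), liver (Pfkl) and platelet (Pfkp) subunits. Pfkp (chromosome 13, 6579768 to 6648777) had 481.6, 475.2, 508.3 and 622.3 normalized counts in NTG and 932.8, 939.9 and 639.0 in mNrf2-TG. mNrf2-TG 19 lay just above NTG 4, and the other mNrf2-TG libraries lay well above (Log2FC 0.68, SE 0.14, adjusted p = 0.0115, and 0.0537 without mNrf2-TG 17). Pfkm was the most abundant subunit gene, with 9487, 9401, 8586 and 9114 in NTG and 7772, 8349 and 8527 in mNrf2-TG. Its groups did not overlap, but the difference did not pass the test (Log2FC -0.15, SE 0.065, adjusted p = 0.13). Pfkl had 829.8, 783.9, 1035 and 1118 in NTG and 1189, 1418 and 1108 in mNrf2-TG, where mNrf2-TG 19 fell below NTG 4. It was not called (Log2FC 0.39, SE 0.13, adjusted p = 0.0694), and passed in DESeq2 (0.0395), with library totals in place of TMM (0.0481), without NTG 3 (0.0451) and without NTG 4 (0.0325).

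Aldolase cuts the sugar into triose phosphates. Aldoa (chromosome 7, 126795234 to 126800751), the muscle aldolase, had 17904, 16713, 17648 and 19054 normalized counts in NTG and 23439, 24929 and 21299 in mNrf2-TG. The groups did not overlap (1.30-fold, Log2FC 0.38, SE 0.072, adjusted p = 0.00746), and the gene was called in each fit without 1 library. Per kb of its principal transcript its level was 11800 normalized counts for NTG against 15369 for mNrf2-TG, the highest of the 43 genes. With all annotated exons as the length, Mdh1 was above Aldoa in both groups. Its span shares 3084 bases with Fam57b on the other strand. Aldoc, the brain aldolase, had at most 2 counts in a library, too few to detect a change (Log2FC 0.06, SE 0.87). Tpi1, triose phosphate isomerase, had 6451 ± 347 (SD, n = 4) in NTG and 7118 ± 192 (SD, n = 3) in mNrf2-TG (Log2FC 0.14, adjusted p = 0.158).

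Gapdh, glyceraldehyde phosphate dehydrogenase, was a reference gene of the study's qPCR. It had 2308, 2153, 2517 and 2335 normalized counts in NTG and 1937, 2239 and 2038 in mNrf2-TG. mNrf2-TG 18 was above NTG 2, so the groups overlapped, and the difference did not pass the test (Log2FC -0.17, SE 0.078, adjusted p = 0.168). Over the alternatives its Log2FC ran from -0.23 to -0.12 and its adjusted p from 0.118 to 0.409. Of the stretches of 50 bases in its transcripts, 24.7% also occur in other genes or pseudogenes, 218 in all, so its count is uncertain.

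The payoff steps hold the genes with the most near-identical copies. Pgk1, phosphoglycerate kinase (chromosome X, 106187100 to 106203699), had 1218, 1145, 1212 and 1213 normalized counts in NTG and 1407, 1418 and 1452 in mNrf2-TG. Its groups lay apart with little spread (Log2FC 0.25, SE 0.061, adjusted p = 0.0205). Pgam1, the phosphoglycerate mutase of most tissues (chromosome 19, 41911923 to 41918660), had 280.4, 254.7, 305.2 and 348.5 in NTG and 460.5, 393.1 and 354.0 in mNrf2-TG. The highest NTG and the lowest mNrf2-TG library almost touched (Log2FC 0.44, SE 0.12, adjusted p = 0.0373). Its muscle partner Pgam2 had 4383, 4135, 4558 and 4705 in NTG and 4603, 4648 and 4358 in mNrf2-TG, which overlapped (Log2FC 0.03, SE 0.067, adjusted p = 0.805). The shared stretches of 50 bases came to 53.9% for Pgk1, 36.2% for Pgam1 and 0.0% for Pgam2. Pgk1 missed the threshold without NTG 2 or any single mNrf2-TG library (adjusted p = 0.0557 to 0.063), and Pgam1 without NTG 1, NTG 2, mNrf2-TG 17 or mNrf2-TG 18 (0.0838 to 0.145).

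Enolase showed a second pair in opposite directions. Eno3 (chromosome 11, 70657202 to 70662513), the muscle enolase, had 8686, 9069, 9749 and 9307 normalized counts in NTG and 7155, 7351 and 7111 in mNrf2-TG. All mNrf2-TG libraries were well below NTG (Log2FC -0.35, SE 0.062, adjusted p = 0.00541), in each fit without 1 library as well. Eno1 (chromosome 4, 150236721 to 150248879), the enolase of most tissues, had 401.1, 383.4, 314.5 and 387.3 in NTG and 403.5, 522.2 and 535.5 in mNrf2-TG. mNrf2-TG 17 was level with NTG 1, and the gene just passed (Log2FC 0.39, SE 0.12, adjusted p = 0.0478). In the fits without 1 library it passed only without mNrf2-TG 17. Its adjusted p was 0.0595 to 0.0883 without any single NTG library, 0.147 without mNrf2-TG 18 and 0.159 without mNrf2-TG 19. Of its stretches of 50 bases, 26.0% are shared, with Eno1b among others, and 0.0% of those of Eno3.

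Pkm, the pyruvate kinase of muscle and most other tissues (chromosome 9, 59656368 to 59679375), had 7131, 6903, 7066 and 7178 normalized counts in NTG and 8036, 8537 and 8205 in mNrf2-TG. The groups were clearly apart (Log2FC 0.22, SE 0.057, adjusted p = 0.024), although 25.8% of its stretches are shared with pseudogenes. It missed the threshold without NTG 1, NTG 2 or any single mNrf2-TG library (adjusted p = 0.0517 to 0.0856). The lactate dehydrogenase genes were not called. Ldha, the muscle form, had 4489 ± 192 (SD, n = 4) and 4435 ± 223 (SD, n = 3) normalized counts (Log2FC -0.02, adjusted p = 0.886). Ldhb, the heart form, had 7470, 7704, 6869 and 7700 in NTG and 6429, 6111 and 6722 in mNrf2-TG. It was lower in each mNrf2-TG library but missed the threshold (Log2FC -0.21, SE 0.067, adjusted p = 0.0571), and passed in DESeq2 (0.0312), limma-voom (0.0471) and without NTG 3 (0.0212).

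Of the other genes of glycolysis and gluconeogenesis, 16 were tested and 2 were called. Hk3, a hexokinase of blood cells, was counted at 2 to 3 reads per NTG library against 4 to 12 per mNrf2-TG library (Log2FC 1.79, SE 0.50, adjusted p = 0.0344), and missed the threshold in DESeq2 (0.0956). It was also not called without any single library other than mNrf2-TG 17 (0.055 to 0.13).

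Cell type markers differed between the same groups. Of 5 macrophage markers 4 were higher in mNrf2-TG, with summed normalized counts of 1662 to 2012 against 2745 to 3588. The highest sum was that of mNrf2-TG 18. Of the genes called higher, Hk1, Gpi1, Pfkp, Aldoa, Pkm, Pygm, Pygb and Pcx were also highest in this library. Gbe1 and Pgam1 were highest in mNrf2-TG 17, and Pgk1 and Eno1 in mNrf2-TG 19, whose macrophage sum was the lowest of its group. Of 6 fibroblast markers 4 were higher (summed level 8385 to 10851 against 12158 to 13050). Of 6 cardiomyocyte markers 3 were lower (485344 to 556671 against 394927 to 425096). Of 5 endothelial markers 1 was higher and 2 were lower, and of 5 smooth muscle and pericyte markers 1 was lower, with overlapping sums for the latter. The part of these shifts in the glycolysis and other results was not tested. In RNA from heart tissue, fewer cells of a type and less RNA per cell cannot be told apart. Of 7 skeletal muscle genes 3 were lower, and of 3 atrial genes 1 was higher. The atrial gene was Nppa (Log2FC 1.47), which the paper treats as a fetal and hypertrophy gene. None of the 5 red blood cell entries was called. The adipocyte markers in the table were near 0, with at most 15 counts of any in a library.

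The ratio of isoforms within a library does not depend on how libraries are scaled. For 11 pairs the log2 ratio of counts was compared by an exact permutation test over the 35 assignments of the libraries (two-sided). The smallest p the test allows is 0.0286, and 6 of the 11 pairs reached it. After adjustment over the 11 pairs their p was 0.0524, so no pair passed an adjusted 0.05. In 8 of 11 pairs the groups did not overlap. No share over other gene pairs was computed to set beside this count, and among single genes 29.7% showed no overlap. Most pairs hold a gene called above, and Pfkm is in both phosphofructokinase pairs. The ratios are therefore not independent of the calls or of each other.

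For Hk1 over Hk2 the log2 ratio was -1.16, -1.01, -0.81 and -0.65 in NTG and -0.03, 0.35 and 0.09 in mNrf2-TG. The difference was 1.04 (exact permutation p = 0.0286, adjusted 0.0524), the largest of the 11, and all mNrf2-TG libraries were higher. Per kb of the principal transcripts, Hk1 made up 43.3% ± 3.75 (SD, n = 4) of the Hk1 and Hk2 level in NTG and 61.1% ± 3.18 (SD, n = 3) in mNrf2-TG. With all annotated exons as the length the shares were 27.3% and 43.5%, so which gene leads in mNrf2-TG depends on the length used. Eno1 over Eno3 rose by 0.74, from -4.63 ± 0.22 (SD, n = 4) to -3.90 ± 0.22 (SD, n = 3) (exact permutation p = 0.0286, adjusted 0.0524). Per kb of the principal transcripts, Eno1 made up 3.03% of the Eno1 and Eno3 level in NTG and 4.95% in mNrf2-TG. With all annotated exons as the length the shares were 1.29% and 2.14%. Eno1b is not part of these shares.

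Pfkp over Pfkm differed by 0.82, from -4.14 ± 0.21 (SD, n = 4) to -3.32 ± 0.37 (SD, n = 3), and Pgam1 over Pgam2 by 0.41, from -3.91 ± 0.11 to -3.50 ± 0.16 (both exact permutation p = 0.0286, adjusted 0.0524). In each of these pairs the gene typical of muscle was still the larger part. For Pfkl over Pfkm the difference was 0.56 (p = 0.0857, adjusted 0.118, exact permutation test) and for Ldha over Ldhb 0.19 (p = 0.0571, adjusted 0.0898, exact permutation test). Neither pair overlapped between the groups. Mdh1 over Mdh2 (difference -0.03, p = 0.686) and Suclg2 over Sucla2 (0.01, p = 0.943) overlapped, and so did Aldoc over Aldoa, which rests on almost no Aldoc counts (exact permutation tests, adjusted p = 0.838 to 0.943).

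**Figure D2:**
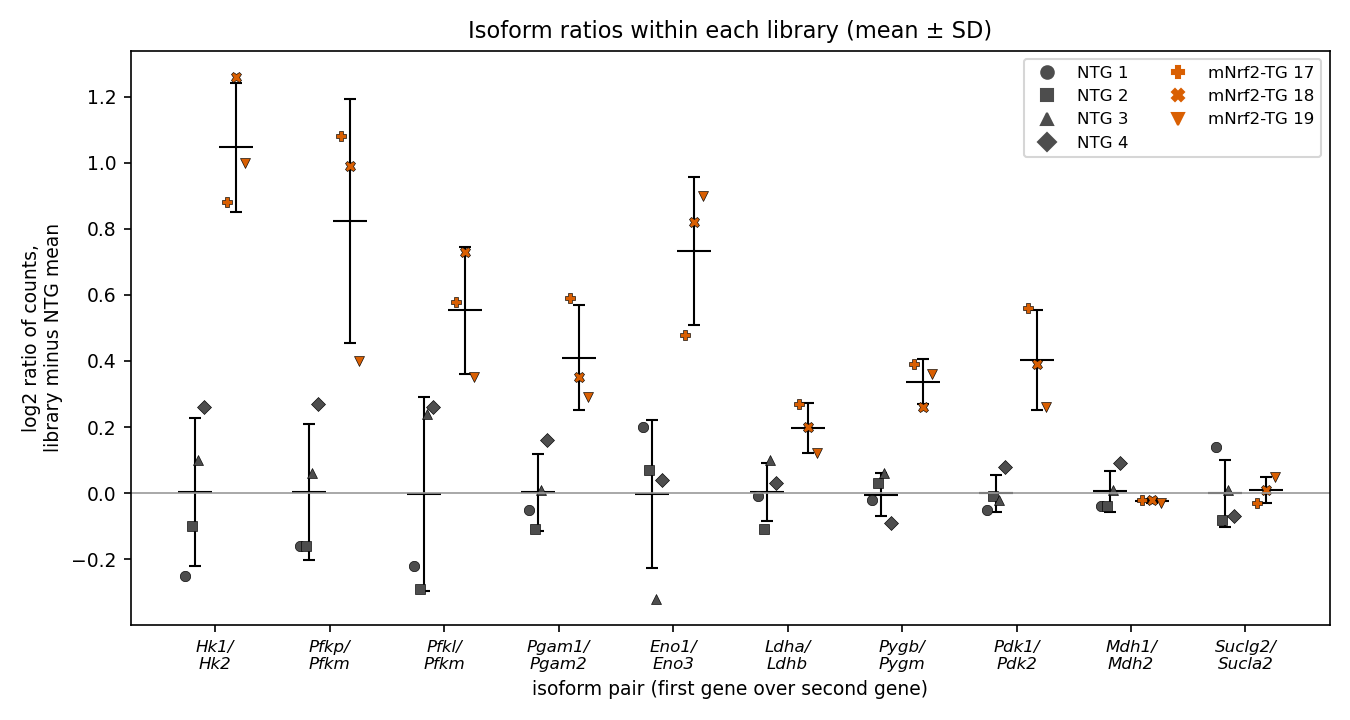
Log2 ratio of counts of the first gene over the second in each library, minus the NTG mean, on the y axis for 10 isoform pairs (x axis), with 1 point per library and bars of mean ± SD for NTG (n = 4) and mNrf2-TG (n = 3). In the first 8 pairs, Hk1/Hk2 (difference 1.04) to Pdk1/Pdk2 (0.40), all mNrf2-TG points lie above all NTG points, and in Mdh1/Mdh2 and Suclg2/Sucla2 they overlap.

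Glycogen genes held the largest change of the 43. Gbe1, the branching enzyme, which adds the side branches of the glycogen tree (Entrez gene 74185, chromosome 16, 70313949 to 70569716), had 627.5, 643.5, 705.3 and 670.1 normalized counts in NTG and 4658, 4262 and 3706 in mNrf2-TG. It was 6.36-fold higher (Log2FC 2.67, SE 0.088, adjusted p = 6.86e-08), with every mNrf2-TG library far above NTG. The Log2FC lay between 2.59 and 2.76 over the 14 alternatives, and the gene was called in each. None of its stretches of 50 bases occurs in another gene. Per kb of principal transcript, Gbe1 stood at 232 normalized counts in NTG, below glycogen synthase (Gys1, 343), and at 1479 in mNrf2-TG, above it (335).

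Both glycogen phosphorylase genes were higher. Pygb, the brain form (chromosome 2, 150786735 to 150831758), had 7968, 8019, 10010 and 7135 normalized counts in NTG and 13501, 13793 and 13099 in mNrf2-TG. NTG 3 was the highest NTG library and still below each mNrf2-TG library (1.63-fold, Log2FC 0.70, SE 0.10, adjusted p = 0.00213, and 4.79e-05 without NTG 3). Pygm, the muscle form (chromosome 19, 6384399 to 6398459), had 10456, 10134, 12411 and 9803 in NTG and 13323, 14898 and 13180 in mNrf2-TG. NTG 3 was again the highest of its group (Log2FC 0.37, SE 0.089, adjusted p = 0.0206, and 0.00176 without NTG 3). Pygb was called in each fit without 1 library, and Pygm was not called without NTG 1, NTG 2, mNrf2-TG 17 or mNrf2-TG 18 (0.0515 to 0.0809). The log2 ratio of Pygb over Pygm went from -0.37 ± 0.07 (SD, n = 4) to -0.03 ± 0.07 (SD, n = 3), a difference of 0.34 without overlap (exact permutation p = 0.0286, adjusted 0.0524).

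Gys1, the glycogen synthase of muscle, had 1262 ± 103 (SD, n = 4) and 1232 ± 33 (SD, n = 3) normalized counts and was not called (Log2FC -0.04, SE 0.078, adjusted p = 0.798). Ugp2, which makes the activated glucose that synthase uses, had 4972 ± 270 (SD, n = 4) in NTG and a wide spread in mNrf2-TG, with 5017 in mNrf2-TG 17, 3366 in mNrf2-TG 18 and 3087 in mNrf2-TG 19. It was not called over all libraries (Log2FC -0.38, SE 0.15, adjusted p = 0.103). Without mNrf2-TG 17, which lay within the NTG range, the Log2FC was -0.62 and the adjusted p 0.00448.

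**Figure D3:**
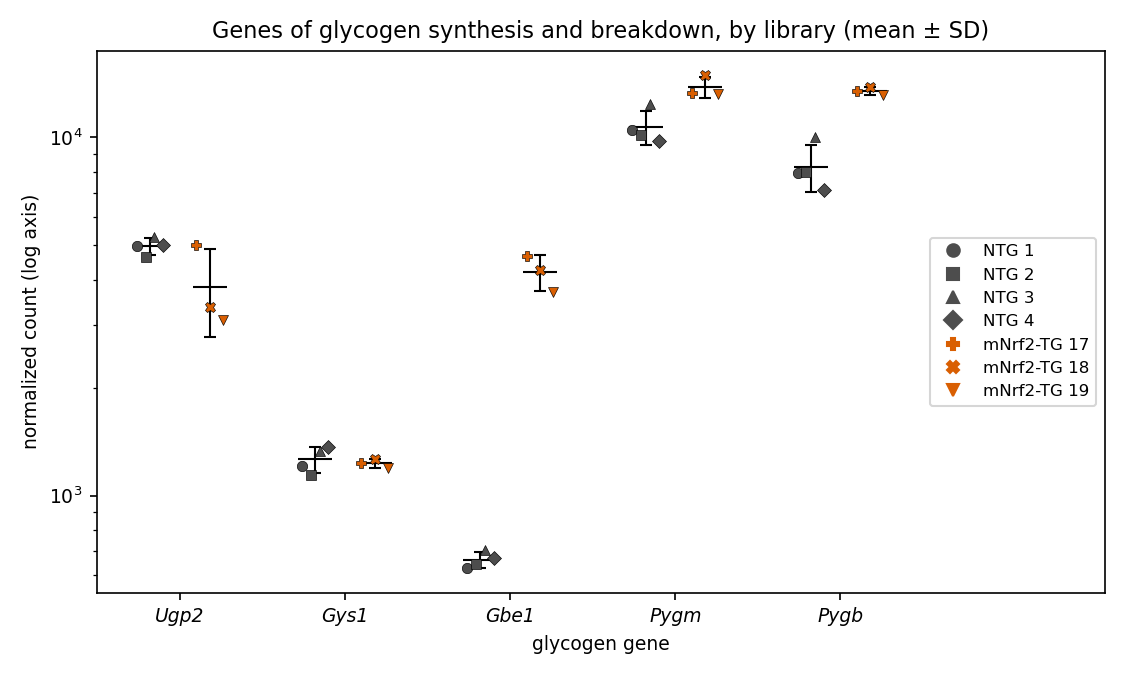
Normalized counts (y axis, log scale) of the 5 glycogen genes (x axis), with 1 point per library and bars of mean ± SD for NTG (n = 4) and mNrf2-TG (n = 3). Gbe1 has 627.5 to 705.3 in the NTG libraries against 3706 to 4658 in the others, Pygm and Pygb lie higher in mNrf2-TG without overlap, and Ugp2 shows mNrf2-TG 17 apart from the other mNrf2-TG libraries.

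Of 23 other genes of glycogen metabolism, 6 were called higher (26.1%), none was called lower and 17 were not called. Over all genes tested, 8.48% were called higher and 17.2% in either direction. The share was not compared with that of genes at the same level. Phka1, a regulatory subunit of phosphorylase kinase, which activates phosphorylase, had 564 ± 39.9 (SD, n = 4) and 2114 ± 342 (SD, n = 3) normalized counts (3.75-fold, Log2FC 1.90, SE 0.11, adjusted p = 6.32e-06). Phkb, the beta subunit of the same kinase, had 740 ± 71.3 and 1752 ± 228 (Log2FC 1.24, SE 0.11, adjusted p = 9.05e-05). Ppp1r3d, a subunit that targets protein phosphatase to glycogen, had 112 ± 10.7 and 186 ± 12.4 (Log2FC 0.73, SE 0.11, adjusted p = 0.00244). These 3 genes did not overlap between the groups and were called in every alternative, as was Gbe1. The remaining called genes were Pygl, Stbd1 and Gaa, which were called in 11, 12 and 8 of the 14 alternatives.

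Pyruvate dehydrogenase is a complex of a decarboxylase (Pdha1, Pdhb), a transferase (Dlat), a flavoprotein (Dld) and a binding protein (Pdhx). Kinases switch it off, of which Pdk1 and Pdk2 are among the 43 genes. Pdhb (chromosome 14, 8165996 to 8173025) had 6508, 6661, 5693 and 5956 normalized counts in NTG and 4919, 5014 and 5225 in mNrf2-TG. It was lower without overlap (Log2FC -0.30, SE 0.072, adjusted p = 0.0209). Dld (chromosome 12, 31331277 to 31351453), which also serves the oxoglutarate dehydrogenase complex, had 6073, 6595, 6072 and 6236 in NTG and 5382, 5259 and 5154 in mNrf2-TG. This gene too was lower in every mNrf2-TG library (Log2FC -0.25, SE 0.061, adjusted p = 0.0215). Both missed the threshold without NTG 1, NTG 2 or any single mNrf2-TG library, with adjusted p of 0.0505 to 0.0789 for Pdhb and 0.0538 to 0.0791 for Dld.

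The other subunits of the complex were not called. Pdha1, the partner of Pdhb, had 11386 ± 627 (SD, n = 4) and 12179 ± 834 (SD, n = 3) normalized counts (Log2FC 0.10, adjusted p = 0.378). Dlat (Log2FC 0.02, adjusted p = 0.899) and Pdhx (-0.13, adjusted p = 0.257) overlapped between the groups and were called in none of the 14 alternatives. Of the kinases, Pdk2 (chromosome 11, 95026258 to 95041354) had 4636, 4450, 4610 and 4325 in NTG and 3615, 3824 and 3831 in mNrf2-TG. It was lower in each mNrf2-TG library (Log2FC -0.26, SE 0.061, adjusted p = 0.0175), and not called without NTG 1 (0.0613) or mNrf2-TG 17 (0.0709). Pdk1 had 2531, 2509, 2579 and 2593 in NTG and 3009, 2834 and 2593 in mNrf2-TG, so that the lowest mNrf2-TG library was level with NTG 4 (Log2FC 0.14, SE 0.068, adjusted p = 0.189). The log2 ratio of Pdk1 over Pdk2 went from -0.82 ± 0.06 (SD, n = 4) to -0.42 ± 0.15 (SD, n = 3), a difference of 0.40 without overlap (exact permutation p = 0.0286, adjusted 0.0524).

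Of 12 other genes of pyruvate transport and entry, 2 were called, both higher. This share, 16.7%, was near the 17.2% of all genes tested that were called. Pdk4, the most abundant kinase gene of the complex, had 9838 ± 1807 (SD, n = 4) and 12315 ± 1485 (SD, n = 3) normalized counts. Its groups overlapped and it was not called (Log2FC 0.32, SE 0.14, adjusted p = 0.141). Pck2, the mitochondrial carboxykinase that makes phosphoenolpyruvate, had 51.1 ± 4.94 (SD, n = 4) and 85.5 ± 3.30 (SD, n = 3) normalized counts (Log2FC 0.74, adjusted p = 0.00606). Pdk3, another kinase of the complex, had 8 to 23 counts per library in NTG and 24 to 41 in mNrf2-TG (Log2FC 1.06, SE 0.32, adjusted p = 0.0446), and passed only without NTG 4 among the fits without 1 library (0.056 to 0.144 in the others).

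Pcx (chromosome 19, 4510472 to 4621752), which carries pyruvate to oxaloacetate, had 297.7, 241.2, 282.5 and 202.1 normalized counts in NTG and 436.8, 477.8 and 410.3 in mNrf2-TG. Each mNrf2-TG library exceeded each NTG library (1.73-fold, Log2FC 0.79, SE 0.13, adjusted p = 0.00366), and the gene was called in each of the 14 alternatives. Its span shares 3883 bases with Lrfn4 on the other strand. Pcx was the second highest Log2FC of the 43 genes, at a low level of 63.0 normalized counts per kb in NTG and 109 in mNrf2-TG.

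A single TCA cycle gene was called. It was Cs, citrate synthase (chromosome 10, 128337734 to 128362479), with 15821, 16482, 16619 and 14948 normalized counts in NTG and 13481, 14149 and 13926 in mNrf2-TG. It was lower in every mNrf2-TG library, close to the threshold (Log2FC -0.21, SE 0.062, adjusted p = 0.0461). Scaled by library totals without TMM factors it was not called (0.0774), and among the fits without 1 library it was called only without NTG 4 (0.0614 without NTG 3, and 0.0883 to 0.141 in the others).

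The other 11 TCA cycle genes had a Log2FC between -0.16 and 0.12, and none of them was called in any of the 14 alternatives. For isocitrate dehydrogenase, Idh3b had 8424 ± 466 (SD, n = 4) and 7559 ± 501 (SD, n = 3) normalized counts (Log2FC -0.16, adjusted p = 0.163), while Idh3a (0.02) and Idh3g (0.04) were near 0. Ogdh, the decarboxylase of the oxoglutarate dehydrogenase complex, had 26539 ± 2074 (SD, n = 4) and 25534 ± 644 (SD, n = 3), and its Log2FC was -0.06, near the -0.05 of its transferase Dlst. The succinate-CoA ligase genes had a Log2FC of -0.16 for Suclg1, which did not overlap between the groups, 0.05 for Suclg2 and 0.04 for Sucla2. Fumarase (Fh1) had a Log2FC of 0.08. The malate dehydrogenases Mdh1 (0.09, adjusted p = 0.277) and Mdh2 (0.12, adjusted p = 0.193) were higher in every mNrf2-TG library without passing the test. With SE of 0.056 to 0.078, changes of this size could not be told from 0.

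**Figure D4:**
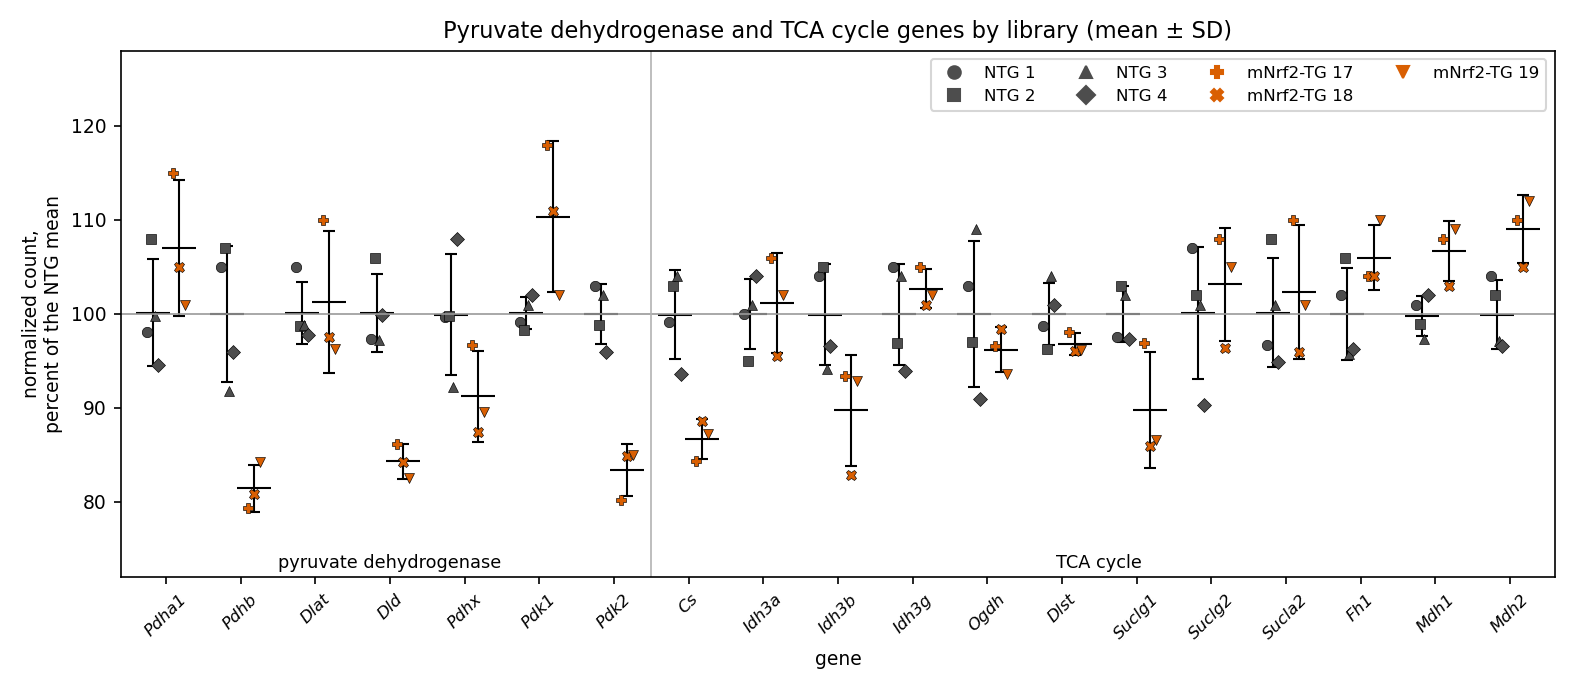
Normalized counts as a percent of the gene's NTG mean (y axis, not starting at 0) for 7 pyruvate dehydrogenase and 12 TCA cycle genes (x axis), with 1 point per library and bars of mean ± SD for NTG (n = 4) and mNrf2-TG (n = 3). The mNrf2-TG points of Pdhb (79.3% to 84.2%), Dld (82.5% to 86.2%), Pdk2 (80.2% to 85.0%) and Cs (84.4% to 88.6%) lie below all NTG points.

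Of 18 other genes of the TCA cycle and its shuttles, 5 were called (27.8%, beside 17.2% of all genes tested). Me1, cytosolic malic enzyme, which makes NADPH, had 1433 ± 71.6 (SD, n = 4) and 2092 ± 185 (SD, n = 3) normalized counts (Log2FC 0.55, SE 0.078, adjusted p = 0.00198). Got1, the cytosolic aminotransferase of the malate-aspartate shuttle, was lower, with 8012 ± 221 and 6544 ± 198 (Log2FC -0.29, SE 0.059, adjusted p = 0.00931). Sdhc, a membrane subunit of succinate dehydrogenase, had 3882 ± 249 and 4886 ± 365 (Log2FC 0.33, SE 0.076, adjusted p = 0.0164, and 0.0709 without mNrf2-TG 17). Idh1 was called with overlapping groups (Log2FC 0.91, SE 0.26, adjusted p = 0.0395), in 7 of the 14 alternatives and not in DESeq2 (0.0573).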

How the data were processed

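Stranded libraries of poly(A)-selected RNA from 7 hearts were read once for 50 bases. Per the submitters' processing notes, reads were aligned with Novoalign 2.08.01 and analysed with DESeq2 1.32.0. The authors kept the best alignment of each read (up to 50 allowed), with Ensembl build 67 transcripts. The methods name hg19 for the index and mm10 for the mapping. The counting program and its use of strand are not given in the sources used here. The deposited counts are whole reads per gene without normalization. The authors' rlog values and their comparison columns (fold changes and p-values) were not used.

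Of 14665 entries, 24 repeated a gene with equal counts and were dropped, and 14637 genes with a summed count above 1 were tested in edgeR 4.0.16 (R 4.3.3, TMM, quasi-likelihood, no covariate, Benjamini-Hochberg). The steps were tested on simulated data. Isoform ratios used counts with 0.5 added. Alternatives were DESeq2 1.42.0, limma-voom (limma 3.58.1), DESeq2 size factors, the library total alone, 3 other filters, each library left out, and, for ratios, adding 0 or 5. Shared stretches and gene positions came from GENCODE M21 (GRCm38), and lengths per kb from principal transcripts. Tables and plots used Python 3.11.15 with pandas 2.3.3, numpy 2.4.6 and matplotlib 3.10.9.

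Members and gene lists were chosen with earlier results of these data known. All members are named, with every library's value for called genes, their isoform partners and Gapdh, and up to 3 called genes with the smallest p in each list of other genes. Pdk4, which was not called, is given beside the other kinase genes. Other called genes of those lists are named without the full values. Some called genes of those lists are not reported here. The library totals limit precision for genes of few counts, such as Aldoc and Hk3.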

Additional observations from a re-analysis of the deposited data

Results flagged for a closer look

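The normalized counts of the 43 genes and the isoform ratios were checked for a single NTG library standing apart, by the gap of the highest or lowest library to its neighbour as a share of the group's range, against Dixon's 95% limit for 4 samples. Of 64 groups checked, 2 passed the limit, and chance gives about 1 in 20. Dlat had 4921 normalized counts in NTG 1, above the other NTG libraries, with a gap of 0.849 of the range. Pgk1 had 1145 in NTG 2, below the other NTG libraries, with a gap of 0.909. Groups of 3, as for mNrf2-TG, cannot be checked this way.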

How the results depend on the processing

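No call of the 43 genes changed its sign in any of the 14 alternatives. The 7 settings that keep all libraries called 18 to 20 of the 43 genes, and 16 of the 18 called genes passed in each of them (Eno1 had an adjusted p of 0.0501 in limma-voom and Cs 0.0774 with the library total alone). Single libraries mattered more. With each left out in turn, 9 to 18 genes were called, 7 to 12 higher and 1 to 6 lower, and over all genes 1373 to 2950, with the lowest count of the 43 genes, 9, without NTG 1 or mNrf2-TG 18, 10 without NTG 2 or mNrf2-TG 17, and 11 without mNrf2-TG 19. Fewer libraries were tested in those fits. Called in all 14 alternatives were Hk1, Gpi1, Aldoa, Eno3, Gbe1, Pygb and Pcx. Isoform differences kept their direction in each alternative where the groups had not overlapped (Hk1 over Hk2 0.94 to 1.13), but without 1 library the exact test cannot go below 0.1 (3 against 3) or 0.0667 (4 against 2). With the library total alone, the median Log2FC of all genes moved to 0.031. No paired analysis was possible because the groups share no replicate numbers. Depth limits Aldoc, with at most 2 counts in a library, and its ratio has no value when 0 is added.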
